A study of Drosophila melanogaster with 4 samples.

Results

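Broad clusters of histone H3 are described here, namely regions of H3 enrichment of 3000 bp or more on the chromosome arms 2L, 2R, 3L, 3R, 4 and X of *Drosophila melanogaster*. They were selected on their length in the authors' series-wide list of enriched regions, and 931 of the 17822 clusters on these arms met that minimum (18424 on all sequences). The material was wild-type Oregon-R embryos of 14 to 16 h, chromatin of which was precipitated with 1 anti-H3 antibody and sequenced (ChIP-seq). There were 2 ChIP libraries and 2 input libraries of unprecipitated chromatin DNA, both kinds numbered 1 and 2 in their titles. Clusters were listed for each ChIP library on its own and once for the whole series, which gave 3645, 2147 and 17822 on the arms in replicate 1, replicate 2 and the series-wide list. Strain, genotype and stage were shared by all 4 libraries and the antibody by both ChIP libraries, so no condition was compared, and the labels do not say whether the replicates came from separate collections of embryos.

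Histone H3 is a core histone, and pairs of it with H4 form the centre of each nucleosome. ChIP with an antibody against total H3 recovers DNA in proportion to how often and how stably nucleosomes sit on it, whatever their modifications. Promoters of active genes are known for sparse or mobile nucleosomes, whereas transcribed bodies and silent chromatin are more evenly packed. A broad cluster is a stretch over which enrichment was listed without a break, and it can span many nucleosomes. Positions are 1-based on FlyBase release 5, per the file headers. Genes are not named, because the symbols available here are those of release 6, and no sequence of release 5 was used here.

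Length chose the members, so their lengths and all other values of the series-wide list are given as description without a test. Broad clusters made up 5.22% of clusters on the arms and 12.2% of the bases in clusters, 3.61 Mb in all. Their median length was 3547 bp, with quartiles of 3239 and 4176 bp, so most lay close above the minimum. There were 290 of 4000 bp or more, 106 of 5000 bp or more and 35 of 6000 bp or more. The shortest members, 3L:2201660-2204660 and 2 clusters on 3R, measured 3001 bp and scored 0.51, 0.39 and 0.45. Just outside lay 2R:16362692-16365690 and 3L:411994-414992, both of 2999 bp, with scores of 0.45 and 0.40. The score is the authors' own value for each cluster, on a log2 scale, and what it was measured against is not stated. The scores on either side of the minimum overlap, and 2445 clusters of 2000 to 2999 bp serve below as the nearest class. Read depth per library is unknown. Exact (Clopper-Pearson) 95% intervals are given for shares and cover counting error alone.

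Among the arms, 2R was richest in broad clusters and X poorest apart from chromosome 4. Arm 2R carried 223 broad clusters, or 10.5 per Mb, and 6.34% of its clusters were broad (interval 5.56 to 7.2). Arm 3R carried the highest number, 252, at 9.03 per Mb and 5.30% of its clusters (4.68 to 5.98). Arm 3L carried 201, at 8.19 per Mb and 5.68% (4.94 to 6.49). On 2L there were 146, at 6.34 per Mb and 4.49% (3.80 to 5.25). The X carried 109, at 4.86 per Mb and 3.98% (3.28 to 4.78). The intervals of 2R and 3L thus do not overlap that of X, those of 2R and 2L do not overlap each other, and the interval of 2L overlaps that of X.

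**Figure D1:**
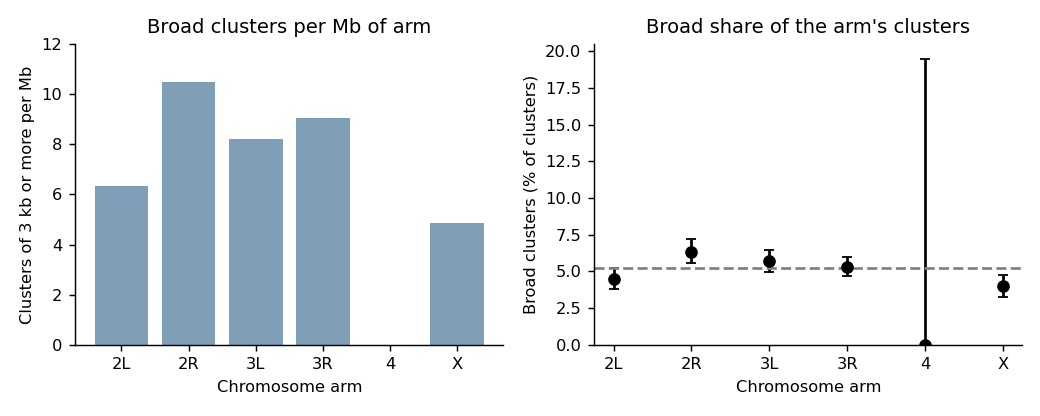
Broad clusters per Mb of arm (left, bars) and as a percentage of all series-wide clusters of the arm (right, points with exact 95% binomial intervals, dashed line at 5.22% for all 6 arms). Arm 2R stands highest in both panels at 10.5 per Mb and 6.34%, and the interval of chromosome 4 is wide because it had 17 clusters.

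Chromosome 4, a small chromosome known for its mixture of active genes and heterochromatin, carried no broad cluster. With 0 of 17 clusters, a share of up to 17.6% is allowed (3 counts of the total), and the exact interval reaches 19.5%, so the absence was not distinguishable from the other arms at this number. Its longest cluster measured 2367 bp.

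The low share on X held for the series-wide list and turned in the lists of the replicates. In the series-wide list the share of broad clusters on X was 0.729 times that on the long autosome arms (all but 4 and X), where 822 of 15064 were broad (5.46%, interval 5.10 to 5.83). In replicate 1, 10 of 497 clusters on X measured 3000 bp or more (2.01%, interval 0.969 to 3.67), against 35 of 3145 on the autosome arms (1.11%, interval 0.776 to 1.54). In replicate 2 it was 4 of 328 on X (1.22%, interval 0.333 to 3.09) and 16 of 1819 on the autosome arms (0.880%, interval 0.504 to 1.42). The ratio of X to autosome arms was therefore 1.81 and 1.39 in the replicates, opposite in direction to the series-wide value, although within each replicate the intervals of X and the autosome arms overlap. At a minimum of 2000 bp the ratio was below 1 in all 3 lists, at 0.859, 0.881 and 0.792. Among the broad clusters of X, 37.6% reached 4000 bp, against 30.3% on the autosome arms, and the ratio of shares at that minimum was 0.905.

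Along the arms, broad clusters were most frequent near the telomeres, both per Mb and as a share of clusters. In the 2 Mb next to the telomere end of 2L, 2R, 3L, 3R and X, 169 of 1884 clusters were broad (8.97%, interval 7.72 to 10.4), which is 16.9 per Mb. In the interior of the same arms it was 739 of 15184 (4.87%, interval 4.53 to 5.22), or 7.46 per Mb. In the 2 Mb next to the centromere it was 23 of 737 (3.12%, interval 1.99 to 4.65), or 2.3 per Mb. By arm the share at the centromere end was 0% on 2L (0 of 100), 3.28% on 2R, 3.08% on 3R and 2.74% on X, below each interior, but 6.42% on 3L (7 of 109, interval 2.62 to 12.8), above its interior share of 5.02%. The telomere ends thus had 1.84 times the interior share, and the centromere ends had few clusters of any length. The ends were set after the data had been seen.

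Each of the 5 arms had a higher broad share at its telomere end than in its interior. The values were 8.27% against 4.12% on 2L, 9.69% against 6.00% on 2R and 11% against 5.02% on 3L. They were 7.94% against 5.18% on 3R and 7.89% against 3.51% on X. The intervals of end and interior do not overlap except on 3R (5.49 to 11 and 4.53 to 5.91). In 1-Mb steps from the telomere, the share was 8.36% and 9.46% in the first 2 steps, 6.46% in the next, and 4.67% between 9 and 10 Mb. The share thus fell off with distance without a sharp border, although neighbouring steps overlap in their intervals.

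**Figure D2:**
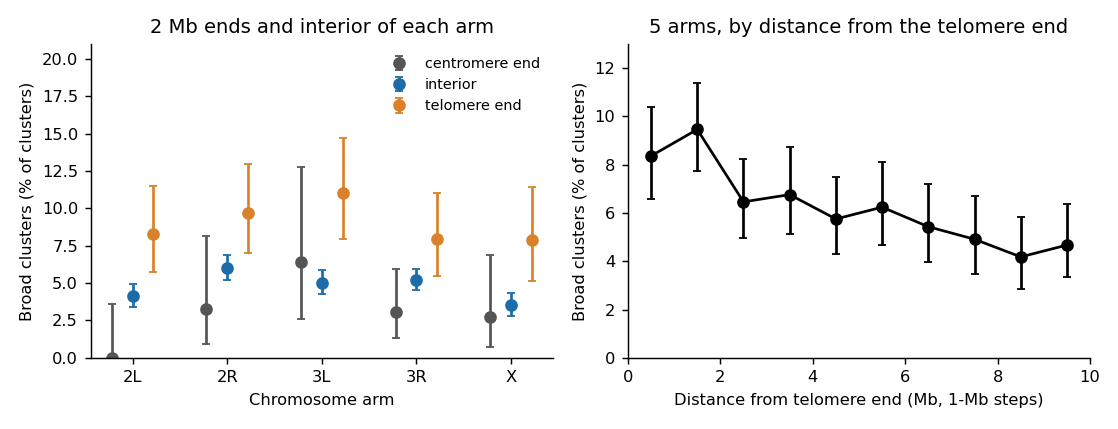
Broad clusters as a percentage of series-wide clusters at the centromere end, the telomere end (2 Mb each) and in the interior of each arm (left), and over 5 arms in 1-Mb steps from the telomere end (right), with exact 95% binomial intervals. The telomere end lies above the interior on each arm, and the share runs from 8.36% in the first step to 4.67% in the last.

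The replicate lists showed the same order of telomere end and interior. Clusters of 2000 bp or more made up 15.9% at telomere ends (76 of 477, interval 12.8 to 19.5) and 10.4% in the interior (317 of 3042, interval 9.36 to 11.6) in replicate 1. In replicate 2 they made up 10.0% (29 of 290, interval 6.8 to 14) and 8.14% (144 of 1768, interval 6.91 to 9.52). The ratios were 1.53 and 1.23, and the intervals overlap in replicate 2. At 3000 bp they made up 2.1% (10 of 477, interval 1.01 to 3.82) against 1.15% (35 of 3042, interval 0.803 to 1.6) in replicate 1, and 2.07% (6 of 290, interval 0.763 to 4.45) against 0.792% (14 of 1768, interval 0.434 to 1.33) in replicate 2. The ratios were 1.82 and 2.61, and the intervals overlap in both replicates. These lists come from the libraries behind the series-wide list and are no independent support.

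Broad clusters were unevenly spread over 1-Mb windows. Of 117 complete windows on 5 arms, the median window held 7 broad clusters, with quartiles of 3 and 11. The 30 windows richest in broad clusters (25.6%) held 458 of the 914 in windows. Windows picked in this way exceed their share by construction, and their share of shorter clusters is not given here. The richest were 2R:19000001-20000000 and 3L:1000001-2000000 with 24 each, out of 219 and 207 clusters, and 3R:24000001-25000000 with 22 of 196. Towards the centromere of 3L, the window 3L:22000001-23000000, chosen after its values were seen, held 20 of 179 (11.2%). The 3 windows without a broad cluster all lay on 2L. They were 2L:17000001-18000000, which still had 92 clusters, and 2L:21000001-22000000 and 2L:22000001-23000000 next to the centromere, with 57 and 45. Broad and shorter clusters rose and fell together over the windows (Spearman's rho = 0.742 and Pearson's r = 0.683 over 117 windows of the same list, which share mappability and arm).

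The distance from 1 broad cluster to the next varied widely, with a long tail. The median gap was 57901 bp, with quartiles of 21861 and 143857.5 bp, over 926 gaps. The median ran from 53306 bp on 3L to 61583 bp on 2L among the autosome arms and was 79317 bp on X. The longest, 2L:16814715-18546393, spanned 1731679 bp and contained 189 shorter clusters, so it was a gap in broad clusters and not in H3 clusters as such. The standard deviation of the gaps was 1.47 times their mean.

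Broad clusters followed each other slightly more often than their share of the list. Of 931 broad clusters, 66 had a broad cluster as the next on the arm (7.09%, interval 5.52 to 8.93), beside 5.22% broad clusters in the list. After clusters of 2000 to 2999 bp the next was broad in 6.42% (157 of 2445, interval 5.48 to 7.47), and after clusters under 2000 bp in 4.90% (708 of 14440, interval 4.56 to 5.27). The intervals of the first 2 classes overlap, whereas those of broad clusters and clusters under 2000 bp do not. By arm the share was 10.3% on 2L (15 clusters, interval 5.87 to 16.4) and 7.17% on 2R (16, 4.16 to 11.4). It was 5.47% on 3L (11, 2.76 to 9.58), 7.54% on 3R (19, 4.6 to 11.5) and 4.59% on X (5, 1.51 to 10.4). On 3L it lay slightly below that arm's own broad share of 5.68%. Only on 2L does the interval lie wholly above the arm's own broad share (4.49%), and on the other arms it includes that share.

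Broad clusters also had close neighbours of any length. The nearest cluster lay within 1000 bp for 476 of the 931 (51.1%), against 47.2% of clusters of 2000 to 2999 bp and 40.6% of those under 2000 bp. The median distance to the nearest cluster was 955 bp for broad clusters, and 1101 and 1406 bp for these classes. Both sides had a neighbour within 1000 bp in 106 broad clusters (11.4%), against 8.47% and 6.44%. When neighbours within 1000 bp were joined, 3100 clusters of 3000 bp or more resulted, of which 2205 contained no broad cluster as deposited. Membership thus depends strongly on where a cluster was ended.

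Most broad clusters stood singly at a distance of 10 kb. With broad clusters grouped when the next lay at most 10 kb away, 712 stood alone (76.5%), 75 groups held 2, 19 held 3 and 3 held 4. The largest groups were on 2R, 3L and 3R, and of the 22 groups of 3 or more, 7 lay on 2R, 5 on 3R, 4 each on 2L and 3L and 2 on X. These arms carried 24%, 27.1%, 15.7%, 21.6% and 11.7% of all broad clusters, in the order 2R, 3R, 2L, 3L and X. Counts this small do not set any arm apart.

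The group of 4 on 2R, 2R:18140532-18166592, was the most compact, with broad clusters over 68.3% of its 26061 bp and 1 shorter cluster between them. Its members measured 3571, 4719, 5167 and 4339 bp. They scored 0.38, 0.41, 0.47 and 0.47, and the second held no cluster of either replicate. The group on 3L, 3L:5825046-5859248, filled 52% of 34203 bp, and each of its 4 members held a cluster of at least 1 replicate. The group on 3R, 3R:11355228-11386478, filled 48.5% of 31251 bp around 6 shorter clusters, and 2 of its 4 members held no replicate cluster. Denser still were some groups of 3, such as 2L:906498-921626, where broad clusters took 97.7% of 15129 bp with no shorter cluster within.

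The score of broad clusters was slightly above that of shorter clusters and matched that of the nearest class. The median was 0.44 in broad clusters (quartiles 0.40 and 0.48) and 0.41 in all shorter ones (0.38 and 0.45), a difference of 0.024 on the log2 scale. Clusters of 2000 to 2999 bp also had a median of 0.44, and the difference to them was 0.00072. Those under 2000 bp had 0.41. The quartile ranges of broad and shorter clusters overlap for the greater part.

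The difference was of like size within X and within the autosomes, although X scored higher throughout. On X the medians were 0.50 in broad and 0.47 in shorter clusters, a difference of 0.025. On the autosome arms they were 0.43 and 0.41, a difference of 0.026, and the 4 autosome arms gave 0.025, 0.019, 0.027 and 0.030 in the order 2L, 2R, 3L and 3R. The score did not rise evenly with length. On the autosome arms it was 0.42 in clusters under 1250 bp, 0.38 from 1250 to 1499 bp, 0.39 from 1500 to 1999 bp and 0.44 from 2000 to 2499 bp. It was then 0.42 up to 2999 bp and between 0.43 and 0.45 in the 5 classes from 3000 bp on. Few broad clusters had low scores. Among the 10% of all clusters with the lowest score 18 of 1783 were broad (1.01%), and among the highest 10% 167 of 1783 (9.37%), beside 5.22% of all clusters. Of those 1783 highest-scored clusters of any length, 56.0% lay on X. The nearest class was alike at the low end. Over all arms the lower quartile was 0.415 from 2000 to 2499 bp and 0.389 from 2500 to 2999 bp. It was 0.398 from 3000 to 3499 bp and 0.403 from 3500 to 3999 bp.

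**Figure D3:**
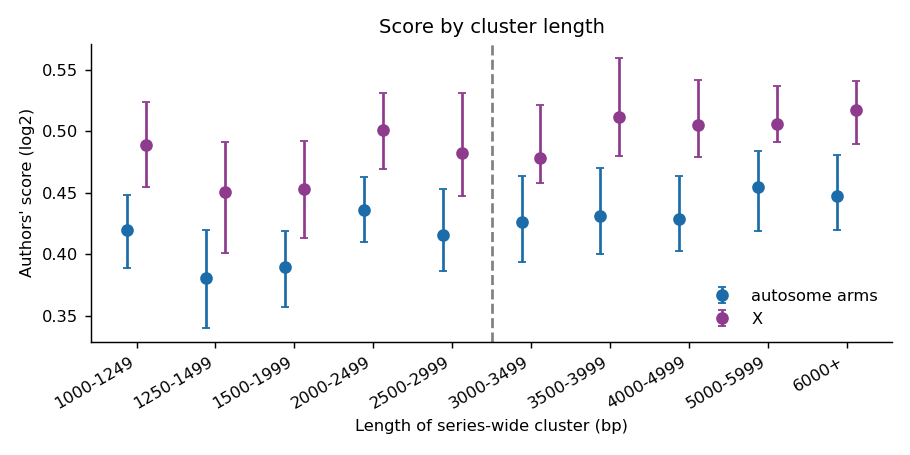
Median of the authors' log2 score with quartiles by length of series-wide clusters, for the autosome arms and for X (dashed line at 3000 bp). The 5 classes from 3000 bp on lie between 0.43 and 0.45 on the autosome arms, and X lies above the autosome arms in each class.

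The highest score of a broad cluster belonged to 3L:11605988-11609416, of 3429 bp, at 1.14, and it held no cluster of either replicate. The next were 3L:1711384-1714828 at 0.64 and 3L:11953412-11958148 at 0.63. These 2 held clusters of both replicates, with scores of 0.80 and 0.84 and of 0.64 and 0.99 in replicates 1 and 2. They were followed by 2R:7197390-7202860 and 2L:560664-563910, also at 0.63, which both replicates also listed. The first of the 5 thus stood apart in score and in having no counterpart.

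How far the replicates on their own listed these regions was asked next, by overlap of at least 1 bp. The series-wide list is by its name a set of the same replicates, and a longer cluster overlaps more by length alone, so the shares describe and do not test. Replicate 1 had a cluster in 587 of the 931 broad clusters (63.1%, interval 59.9 to 66.2), beside 19.9% of all clusters on the arms. Replicate 2 had one in 368 (39.5%, interval 36.4 to 42.8), beside 11.7% of all clusters. The mean was 51.3% ± 16.6 (SD, n = 2) for broad clusters and 34.2% ± 13.3 for clusters of 2000 to 2999 bp. Replicate 1, with the longer list, was above replicate 2 in each class, and the SD between replicates was nearly as large as the difference between the 2 classes. Within each replicate the share was higher in broad clusters (63.1% against 43.6%, and 39.5% against 24.8%). The shares of all clusters are lowered by 5965 clusters under 1250 bp, shorter than any replicate cluster (minimum 1301 bp). Of these, 2.97% and 2.51% held a cluster of replicates 1 and 2.

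Both replicates were present in 234 broad clusters (25.1%, interval 22.4 to 28.1), beside 3.09% of all clusters. Replicate 1 alone was present in 353, replicate 2 alone in 134, and neither in 210 (22.6%, interval 19.9 to 25.4), beside 71.5% of all clusters. In the nearest class both were present in 9.12% and neither in 40.7%. Broad clusters with both replicates were longer and scored higher than those with neither, with medians of 3846 and 3399 bp and of 0.47 and 0.41. On X the medians of the score were 0.54 and 0.47, and off X 0.46 and 0.40. The difference in score was not particular to broad clusters. In the nearest class the medians with both and with neither were 0.479 and 0.419. They were 0.535 and 0.48 on X, and 0.466 and 0.413 off X. Clusters shorter than that class did not show it, with 0.406 and 0.41. Among broad clusters, the share with both ran from 21.1% on X to 30.8% on 2L. The share with neither ran from 20.2% on 2R to 26.6% on X. Broad clusters at telomere ends held replicate 1 in 65.1% and replicate 2 in 43.8%, close to 62.7% and 38.4% in the interior, with overlapping intervals. The longest with neither were 3L:22219444-22225998 of 6555 bp, 3R:25396194-25402170 of 5977 bp and 2L:725740-731558 of 5819 bp, scored 0.41, 0.44 and 0.41.

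Few broad clusters held several separate clusters of 1 replicate. Replicate 1 had 2 or more clusters in 62 broad clusters (6.66%, interval 5.14 to 8.46), beside 0.404% of all clusters. These were 56 with 2, 5 with 3 and 1 with 4, against 525 with 1. Replicate 2 had 2 or more in 28 (3.01%, interval 2.01 to 4.32), beside 0.18% of all clusters, namely 27 with 2 and 1 with 3, against 340 with 1. The mean was 4.83% ± 2.58 (SD, n = 2), against 0.245% ± 0.174 in clusters of 2000 to 2999 bp. The shortest replicate cluster measured 1301 bp, so clusters much under 3000 bp have little room for a pair. The share rose with length to 31.4% and 20.0% of the 35 clusters of 6000 bp or more in replicates 1 and 2. Inside broad clusters the breaks between clusters of the same replicate had medians of 377 bp (69 breaks, 2 to 2430 bp) in replicate 1 and 687 bp (29 breaks, 15 to 2928 bp) in replicate 2. The length of a broad cluster bounds such breaks, so they are short by construction. In the whole lists the median gaps were 17558 and 30733 bp, and 372 and 169 gaps were no longer than the longest break.

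By bases in place of counts, broad clusters differed little from clusters of 2000 to 2999 bp. Replicate 1 clusters covered 33.5% of the bases of broad clusters, 30.1% in the class of 2000 to 2999 bp and 13.3% under 2000 bp. In replicate 2 it was 19.0%, 16.1% and 7.40%. The ratio of broad to all shorter clusters was 1.95 and 2.02 (mean 1.99 ± 0.050, SD, n = 2), and the ratio to those of 2000 to 2999 bp was 1.11 and 1.18 (1.15 ± 0.047). Per Mb, broad clusters held 181.9 and 110.1 clusters of replicates 1 and 2, and the class of 2000 to 2999 bp held 182.6 and 103.4. Longer clusters thus held a replicate cluster more often, while the number per Mb was about the same in these 2 classes. From 3000 bp on, coverage went from 32.8% to 34.9% in replicate 1 and from 17.7% to 24.7% in replicate 2.

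**Figure D4:**
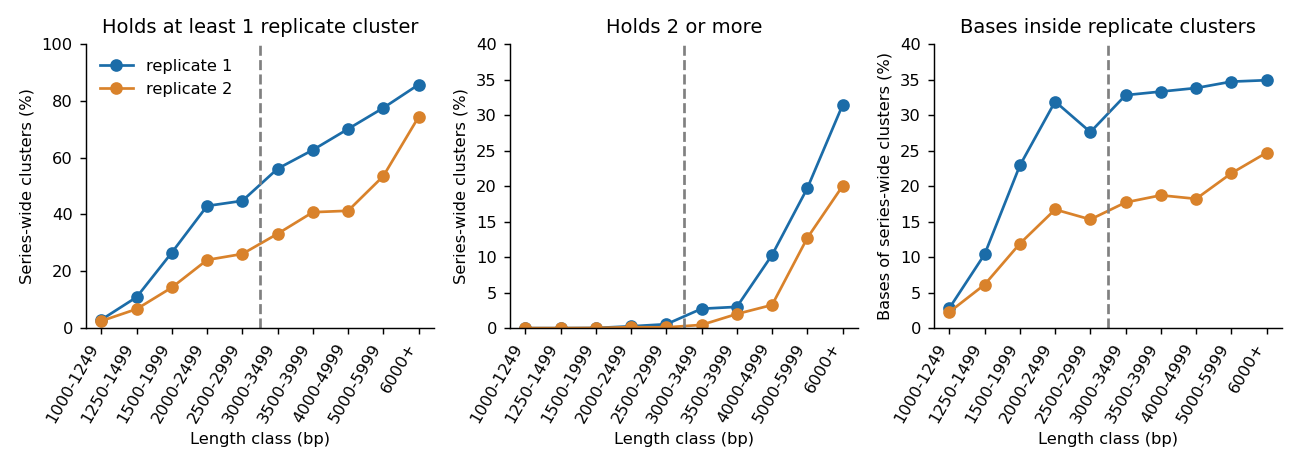
Series-wide clusters by length class that hold at least 1 cluster of a replicate (left), that hold 2 or more (middle), and the percentage of their bases inside replicate clusters (right), for replicates 1 and 2 (dashed line at 3000 bp). From 3000 bp on, the left and middle panels rise up to the longest class, while coverage in replicate 1 changes from 32.8% to 34.9% above 3000 bp.

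Replicate clusters in broad clusters were longer and scored higher than those in shorter ones. The median length was 1684 against 1505 bp in replicate 1 and 1608 against 1474 bp in replicate 2, a mean difference of 156.5 bp. The median score was 0.58 against 0.54 in replicate 1 and 0.71 against 0.68 in replicate 2, differences of 0.034 and 0.026 on the log2 scale. On X the differences in score were 0.049 and 0.034, and on the autosome arms 0.035 and 0.028. Replicate clusters were grouped here by the length of the series-wide cluster they overlapped most, and the lists share libraries. The like direction in both replicates and both arm groups is therefore description and no support. Against replicate clusters in the class of 2000 to 2999 bp the differences were smaller, at 42 and 91.5 bp in length and 0.0094 and 0.0098 in score. A replicate cluster was fully contained in its broad cluster in 79.4% and 79.3% of overlaps. It took up 43.9% and 41.4% of the broad cluster in the median.

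Within broad clusters the replicate clusters sat off the centre. For contained clusters with at least 500 bp of room, the place was scaled so that 0 is the centre and 1 an end, and a cluster placed at any point with equal chance has a median of 0.5. Where a broad cluster held 1 cluster of the replicate, the median was 0.654 in replicate 1 (n = 400) and 0.679 in replicate 2 (n = 270). Clusters of 2000 to 2999 bp gave 0.543 (n = 551) and 0.489 (n = 373). The inner 50% of the range held 33.2% (interval 28.6 to 38.1) and 31.1% (25.6 to 37.0) in broad clusters, against 46.6% (42.4 to 50.9) and 51.7% (46.5 to 56.9). The intervals of the 2 classes do not overlap in either replicate. This measure was added after the data had been seen.

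The replicates did not always mark the same stretch of a broad cluster. Of the 234 with both, their clusters overlapped each other in 191 (81.6%, interval 76.1 to 86.4), against 215 of 223 (96.4%, interval 93.1 to 98.4) in clusters of 2000 to 2999 bp, where there is less room to miss. In these 234, either replicate covered 70.3% of bases and both together 21.9%. Of the 721 broad clusters with any replicate cluster, 4 were marked from end to end by the replicates combined. The longest unmarked stretch had a median of 1346 bp and was 2000 bp or more in 122 (16.9%).

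The longest broad clusters show this patchwork. The longest, 3L:22328194-22340330 of 12137 bp and score 0.45, held 4 clusters of replicate 1 and 1 of replicate 2. The 4 measured 1838, 1568, 2833 and 1438 bp and scored 0.57, 0.55, 0.59 and 0.49. The cluster of replicate 2 measured 1491 bp, scored 0.54 and lay near the far end, from 10479 bp after the start. Replicate 1 covered 63.3% of the region and replicate 2 12.3%, and the last cluster of replicate 1 overlapped that of replicate 2.

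X:1420186-1429682, of 9497 bp and score 0.57, held 2 clusters of replicate 1 and 1 of replicate 2, scored 0.80, 0.63 and 0.91. All 3 ended within 6411 bp of its start, and the last 3085 bp were unmarked. 2L:14601236-14610500, of 9265 bp, likewise had its 3 replicate clusters within 5628 bp of its start. 3R:18329954-18338402, of 8449 bp, held 3 clusters of replicate 1 over 64.9% of its length, and its next cluster on the arm began after a gap of 5 bp. 3R:698648-706912, of 8265 bp, was marked once by each replicate, between 5090 and 6930 bp from its start. Unmarked by either replicate were thus the last 3085 and 3636 bp of the regions on X and 2L and the first 5090 bp of the last one, while 3R:18329954-18338402 was marked near both ends.

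The other 5 of the 10 longest measured 7409 to 7779 bp and scored 0.42 to 0.51. In 3R:18906238-18914016 the replicates covered 48.2% and 42.2%. 3R:19650930-19658424 held 3 clusters of replicate 1 and none of replicate 2, the one among the 10 longest without both. In 2R:11590468-11597934 each replicate had 1 cluster, and the 2 did not overlap. Of the 10 longest, 4 lay on 3R, 2 on 3L, 2 on 2R and 1 each on 2L and X.

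**Figure D5:**
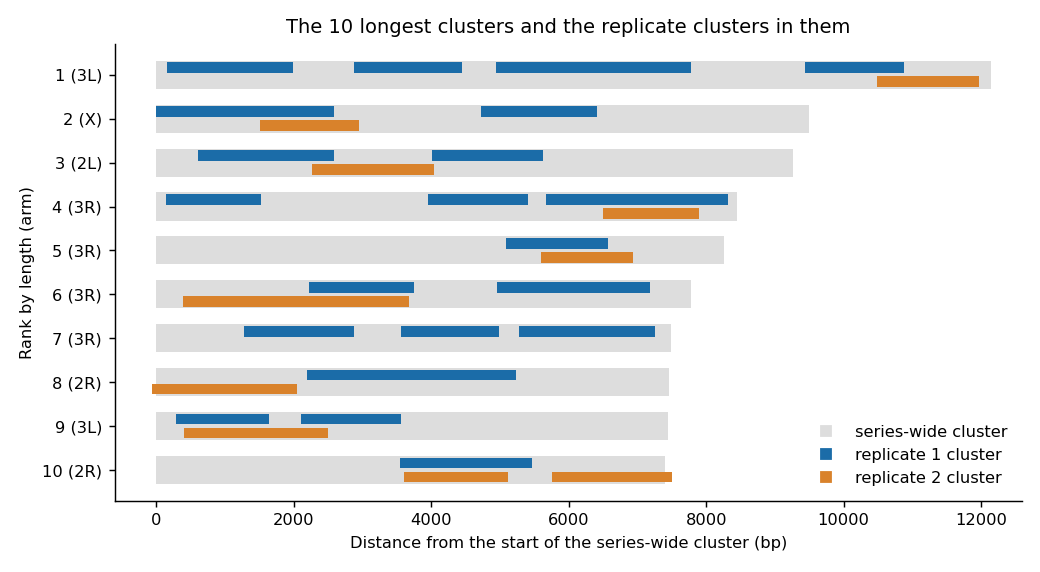
The 10 longest broad clusters (grey, ranked by length, arm in brackets) with the clusters of replicate 1 (blue) and replicate 2 (orange) inside them, by distance in bp from the start of the series-wide cluster. Replicate clusters of 1331 to 3283 bp occupy parts of each region, and the longest region holds 4 clusters of replicate 1.

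The most replicate clusters in 1 broad cluster, both replicates counted, were the 5 of the longest one. Those with 4 included 3R:18329954-18338402, already described, 3R:18839354-18846274 with 2 of each replicate over 52.8% and 71.6% of its 6921 bp, and 2R:16748112-16754104 with 2 of each over 64.8% and 60.6% of its 5993 bp. In 2L:914926-921626 the count was 1 of replicate 1 and 3 of replicate 2, of which 1 reached in from the neighbouring broad cluster by a short stretch. It belongs to the dense group of 3 on 2L, so repeated replicate clusters and neighbouring broad clusters met there.

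Clusters of 3000 bp or more were rare in the replicates themselves. Replicate 1 had 45 (1.23% of its clusters on the arms, interval 0.902 to 1.65) and replicate 2 had 20 (0.932%, interval 0.57 to 1.44), and their longest measured 4966 and 4397 bp. Of these, 44 and 17 had their largest overlap with a broad cluster, beside 17.9% and 18.4% of replicate clusters of any length. The lists share libraries and a long replicate cluster needs room, so these counts describe and do not test. The longest of replicate 1, 3R:5481740-5486705 with a score of 0.61, nearly filled the series-wide cluster 3R:5481588-5486676. The longest of replicate 2, 3L:11953203-11957599 with a score of 0.99, lay in 3L:11953412-11958148, named above among the highest scores.

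No region was broad in both replicates, but such clusters made up 1.23% and 0.932% of the lists, so this absence says little. Of the 45 of replicate 1, 19 overlapped a cluster of replicate 2, and of the 20 of replicate 2, 12 overlapped a cluster of replicate 1, but none overlapped a cluster of 3000 bp or more of the other. The share of replicate clusters of any length that overlap the other replicate is not given here, so these counts have no baseline. The exceptions, whose largest overlap was not with a broad cluster, were 3R:6117269-6120381 in replicate 1 (3113 bp) and 3 in replicate 2. The latter were 3L:1594084-1597992 (3909 bp), 3L:13617346-13621126 (3781 bp) and 3L:12033837-12037021 (3185 bp). Each had its largest overlap with a series-wide cluster shorter than itself, of 1481, 2799, 2049 and 2597 bp in this order. The median score of the 45 and 20 was 0.64 and 0.78, against 0.55 and 0.69 in the shorter clusters of the same replicate. Of the 45 and 20, 10 and 4 lay on X, where scores were higher. On the autosome arms the medians were 0.61 against 0.54 in replicate 1 and 0.76 against 0.67 in replicate 2.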

How the data were processed

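H3 ChIP-seq clusters of Oregon-R embryos were taken from 3 deposited lists. Reads were handled with Bowtie 0.12.7, per the submitters' processing notes, and positions refer to FlyBase release 5, per the file headers. How clusters were called, at which threshold, and how the replicates were joined was not given in the sources used here. The deposited score per cluster is the authors' value and was taken as log2, since read in base 2 at least 99.1% of the scores of each list, set against the score most frequent in it, give ratios of small whole numbers (denominators to 1000, tolerance 1e-10 relative). Start and end were deposited as 1-based positions and used as they are, so other values such as length follow from the authors' borders. Clusters of 3000 bp or more on the 6 arms were counted by arm, in 1-Mb windows by midpoint and in the 2 Mb next to each arm end, with the centromere at the high end of 2L, 3L and X. A replicate cluster was counted as held by each series-wide cluster that it overlapped by at least 1 bp, and for its own length and score it was assigned to the one of largest overlap. No test was made, because length selected the members and the lists share libraries; p-values are not given. Functions were tested on simulated data. The members, classes and named clusters were chosen with earlier results of these data known: the 10 longest, the 5 highest in score, the 5 with most replicate clusters, the largest groups, the 3 richest windows and those with none, and replicate clusters outside broad ones. The lowest scores, telomere ends, placement and clusters without replicates were added. Python 3.11.15, numpy 2.4.6, pandas 2.3.3, scipy 1.17.1 and matplotlib 3.10.9 were used.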

Additional observations from a re-analysis of the deposited data

Results flagged for a closer look

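Clusters of 3000 bp or more also occurred outside the 6 arms, in sequences that entered no comparison. There were 11 among 602 such clusters, a share of 1.83% (exact 95% interval 0.916 to 3.25), below the 5.22% on the arms. They are given because they lie outside the main measurement. The placed heterochromatin 3LHet held 6 of 81 (7.41%, interval 2.77 to 15.4), 3RHet 3 of 122 (2.46%, interval 0.51 to 7.02) and the unplaced sequence U 2 of 292 (0.685%, interval 0.0831 to 2.45), while 2RHet had 0 of 91, for which the exact interval reaches 3.97%, and 3 counts of the total would be 3.3%.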

How the results depend on the processing

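Of 59 alternatives to 10 results, 36 stayed within the replicate SD, the exact interval or, for a count, 1.5 times, 20 moved further and 3 reversed. The 36 include every result with a replicate left out. With 2 replicates such a value always stays within their SD, so these say nothing on stability. The 12 on telomere ends and on shorter clusters of 1250 bp or more were added after the data had been seen. The number of broad clusters was 1842 at 2500 bp, 290 at 4000 bp, 3100 with neighbours within 1000 bp merged and 615 in the upper 50% by score. For these settings the share followed by a broad cluster was 14.2% at 2500 bp, 2.07% at 4000 bp and 27.3% with merging, beside broad shares of 10.3%, 1.63% and 23.0%. The ratio of X to autosome arms was 0.905 at 4000 bp and reversed to 1.81 and 1.39 in the own lists of replicates 1 and 2. The score difference was 0.018 at 2500 bp, 0.030 at 4000 bp, 0.00072 against clusters of 2000 bp or more and 0.033 against those of 1250 bp or more. It reversed to -0.0010 with merging. The share with 2 or more clusters of a replicate was 11.4% at 4000 bp. Coverage over shorter clusters of 2000 bp or more was 1.15 times. The score difference of replicate clusters, as a mean of both replicates, was 0.042 on X. The telomere ratio was 2.22 at 4000 bp, 1.43 with merging, 2.19 on 3L, 1.53 on 3R and 2.25 on X. Each replicate alone gave 39.5 to 63.1% of broad clusters with a replicate cluster, 3.01 to 6.66% with 2 or more, coverage ratios of 1.95 to 2.02, score differences of 0.026 to 0.034 and length differences of 134.0 to 179.0 bp. Counts at other minima change by construction, and otherwise the cause was not tested. No paired analysis was possible because the inputs have no list of their own and no test was made. Depth is unknown.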

Other observations

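Scores above 1 were rare at every length. They were found in 50 of 14446 clusters under 2000 bp, in 0 of 2445 clusters of 2000 to 2999 bp and in 1 of 931 broad clusters, 3L:11605988-11609416. Scores reached 3.36 under 2000 bp, 0.82 from 2000 to 2999 bp and 1.14 in broad clusters, where the next highest was 0.64. The lowest scores of broad clusters were those of 2R:936630-941060 and 3L:24457624-24463778, both at 0.26. The latter stood alone, with 29809 and 19067 bp to its neighbours, and both replicates listed a cluster in it, scored 0.36 and 0.30. In 12 broad clusters (1.29%) the nearest cluster was more than 10000 bp away, against 2.13% of clusters of 2000 to 2999 bp and 3.24% of those under 2000 bp.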
